A study of Mus musculus with 8 samples.

Results

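The 4 genes described here, Tnfrsf9, Cd69, Tfrc and Treml2, encode surface receptors tied to lymphocyte activation. They were taken by exact gene symbol from the authors' deposited list of 409 probe sets, itself drawn from these arrays, and they hold 5 of its probe sets, 2 for Tnfrsf9 and 1 for each other gene. The list names 289 genes in all, and the array table holds 45101 probe sets. Its values show a list chosen on a difference with treatment, although its header leaves the compared conditions blank (the mean over blockade arrays and that over untreated arrays lie at least 1.00 log2 units apart for each listed probe set), so the response of the 4 genes to treatment is given below as a description, with no test. Tests were kept for the contrasts between CD4 and CD8 cells, which are other differences than the one with treatment. Whether the choice of the list also depended on the spread between subsets is not known. The header names an unpaired test, and if that test pooled the subsets, the gap between them entered its error. The tests between subsets may therefore not be free of the choice.

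In a mixed lymphocyte reaction T cells respond to cells of a foreign mouse strain; here RNA of the responding T cells was measured on 8 Affymetrix Mouse430_2 arrays. C57BL/6 splenocytes labelled with the dye CFSE were the responders (200000 per well), the stimulators were FVB/N splenocytes given 30 Gy of irradiation (800000 per well), and every culture ran for 5 days. The 4 groups, with 2 arrays each, were CD4 cells and CD8 cells of cultures with no antibody, and CD4 cells and CD8 cells of cultures that received blockade, which is 50 µg each of anti-CD40L, anti-LFA-1 and CTLA4-Ig given together. CFSE-positive cells that stained for CD4 or for CD8 were sorted, without regard to how often they had divided as far as the labels say, and RNA came from 300000 of them. The 3 agents were always given together, so no effect can be assigned to one of them. Each group came from 4 mice per the labels, but nothing ties its 2 arrays to separate cultures. The p-values therefore reflect array-to-array spread alone, part or all of which may be technical.

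T cells that recognise antigen with costimulation place new receptors on their surface. CD69 is among the earliest; it is a C-type lectin-like protein that holds lymphocytes in tissue by pairing with the sphingosine-1-phosphate receptor S1PR1. CD137 (4-1BB), the product of Tnfrsf9, is a receptor of the tumour necrosis factor family that appears after activation and signals for survival and expansion. CD71, the transferrin receptor encoded by Tfrc, brings in the iron that dividing cells need, and TLT-2, encoded by Treml2, is an immunoglobulin-type receptor found in mice on B cells, on myeloid cells and on some T cells.

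On GRCm38.p6, Tnfrsf9 lies at chr4:150920155-150946104, Cd69 at chr6:129267324-129275375, Tfrc at chr16:32608896-32632794 and Treml2 at chr17:48299390-48312534. Because the 4 genes were all lower under blockade, the sequences before their transcription starts are shown where RefSeq's table of that build holds them, which was for Tnfrsf9 and for Tfrc, each with 2 starts. Each line is the 250 bases before a start, 5′ to 3′ on the gene's strand, and capitals mark matches to any of 5 motifs searched on both strands: GGG and CC with any 5 bases between them (an NF-kB-like pattern), TGANTCA (AP-1), CACGTG (the E-box), TTCNNNGAA (STAT) and GCGNGGGCG (Egr).
Tnfrsf9, first start, chr4:150919905-150920154, plus strand: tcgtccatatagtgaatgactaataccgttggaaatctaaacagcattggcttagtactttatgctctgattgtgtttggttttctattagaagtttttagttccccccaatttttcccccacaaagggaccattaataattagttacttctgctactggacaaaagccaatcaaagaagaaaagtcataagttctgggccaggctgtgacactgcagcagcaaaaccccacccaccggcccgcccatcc
Tnfrsf9, second start, inside the gene, chr4:150927749-150927998, plus strand: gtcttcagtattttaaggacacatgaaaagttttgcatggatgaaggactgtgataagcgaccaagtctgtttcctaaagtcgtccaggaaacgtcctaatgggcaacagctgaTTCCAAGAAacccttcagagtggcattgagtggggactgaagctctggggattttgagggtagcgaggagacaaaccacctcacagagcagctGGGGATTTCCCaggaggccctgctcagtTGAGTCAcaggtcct
Tfrc, first start, chr16:32608646-32608895, plus strand: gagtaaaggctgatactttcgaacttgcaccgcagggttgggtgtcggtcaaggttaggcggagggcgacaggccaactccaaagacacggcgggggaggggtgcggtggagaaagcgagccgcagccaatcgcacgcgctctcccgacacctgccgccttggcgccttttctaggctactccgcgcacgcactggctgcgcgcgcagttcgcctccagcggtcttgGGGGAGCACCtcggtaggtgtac
Tfrc, second start, chr16:32608872-32609121, plus strand: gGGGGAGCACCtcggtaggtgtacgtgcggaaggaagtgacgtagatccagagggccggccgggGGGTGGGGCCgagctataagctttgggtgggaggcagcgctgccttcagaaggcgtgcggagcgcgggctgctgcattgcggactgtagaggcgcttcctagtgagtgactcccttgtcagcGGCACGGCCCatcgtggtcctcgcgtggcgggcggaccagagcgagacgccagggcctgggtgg

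The window before the first Tnfrsf9 start held no match to the 5 motifs. The window before the second held a pair of overlapping NF-kB-like matches from base 43 to base 33 before the start, a TGANTCA match from base 15 to base 9 and a TTCNNNGAA match from base 136 to base 128. The first Tfrc window held 1 NF-kB-like match, from base 23 to base 14 before its start. The second Tfrc window, which overlaps the first, held that same match near its far end and 2 more, from base 186 to base 177 and from base 64 to base 55. Over all 32851 windows of this length in the table, 45.8% held the NF-kB-like pattern, 6.7% TGANTCA, 6.0% CACGTG, 7.0% TTCNNNGAA and 4.7% GCGNGGGCG. A match is a description of these letters and says nothing of binding in these cells.

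All values below are log2 values relative to the probe set's own median over the 8 arrays, so they rank the arrays for one probe set and give no absolute level of expression. The log base is read from the layout of the deposited list and is not stated in the sources used here. Values were not comparable between genes for the same reason.

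Tnfrsf9 separated the 4 groups most widely. Probe set 1428034_a_at read 3.25 and 3.90 on the untreated CD4 arrays and -1.45 and -1.67 on the CD4 blockade arrays. In CD8 cells it read 1.45 and 1.48 without antibody and -2.17 and -2.49 under blockade. The untreated CD4 arrays stood highest, the untreated CD8 arrays in the middle, and all 4 blockade arrays below them, with no overlap between any of the 4 groups.

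The second Tnfrsf9 probe set, 1460469_at, read 3.10 and 3.39 in untreated CD4 cells and 0.89 and 1.29 in untreated CD8 cells. Under blockade it read -1.21 and -1.48 in CD4 cells and -1.05 and -0.89 in CD8 cells. The order of the untreated groups was that of the first probe set, while under blockade the CD8 arrays stood slightly above the CD4 arrays instead of below them.

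**Figure D1:**
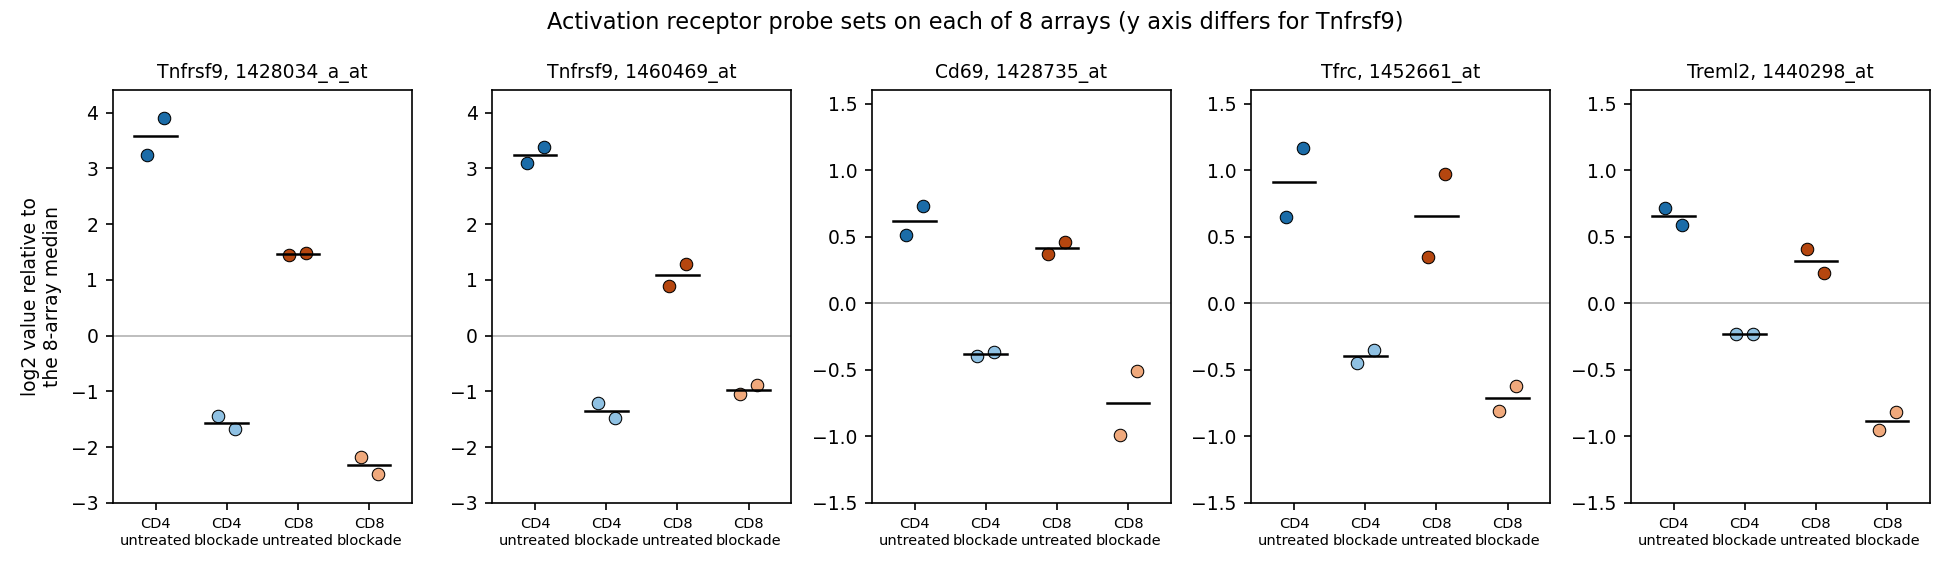
Log2 value relative to the 8-array median (y axis, wider for Tnfrsf9) of the 5 probe sets of Tnfrsf9, Cd69, Tfrc and Treml2 in the 4 groups (x axis); each point is 1 array and each bar the mean of 2. All 4 blockade arrays lie below all 4 untreated arrays in every panel, and the untreated CD4 arrays of Tnfrsf9 (3.10 to 3.90) stand apart from the untreated CD8 arrays (0.89 to 1.48). The list was selected on the difference with treatment, so nothing is read from the separation by treatment. Its share over all probe sets was not counted.

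Averaged over both probe sets, Tnfrsf9 differed between blockade and untreated cells by -4.86 ± 0.16 (limma SE, 2 and 2 arrays) in CD4 cells, a 29.1-fold lower level under blockade. In CD8 cells the difference was -2.93 ± 0.16, or 7.61-fold. In size this was the fourth of the 289 named genes in CD4 cells and the 22nd in CD8 cells (ranks 4 and 22). The probe sets differed in CD8 cells, where 1428034_a_at gave -3.80 ± 0.20 and 1460469_at -2.06 ± 0.17, more than in CD4 cells, where they gave -5.13 ± 0.20 and -4.59 ± 0.17. On single arrays the first probe set minus the second was -1.12 and -1.60 in CD8 cells under blockade, against -0.24 to 0.56 on the other 6 arrays.

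Cd69 read 0.51 and 0.73 in untreated CD4 cells and -0.40 and -0.37 under blockade. In CD8 cells it read 0.37 and 0.46 without antibody and -0.99 and -0.51 under blockade. All blockade arrays lay below all untreated arrays, and the lowest value was that of CD8 blockade replicate 1. The difference with treatment was -1.01 ± 0.16 in CD4 cells (2.01-fold) and -1.17 ± 0.16 in CD8 cells (2.24-fold).

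Tfrc read 0.65 and 1.17 in untreated CD4 cells and -0.45 and -0.35 under blockade. In CD8 cells it read 0.35 and 0.97 without antibody and -0.81 and -0.62 under blockade. The 2 untreated arrays of each subset were far apart, and those of the subsets overlapped. The difference with treatment was -1.31 ± 0.22 in CD4 cells (2.48-fold) and -1.37 ± 0.22 in CD8 cells (2.59-fold).

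Treml2 read 0.72 and 0.59 in untreated CD4 cells and -0.23 on both CD4 blockade arrays. In CD8 cells it read 0.41 and 0.23 without antibody and -0.95 and -0.82 under blockade. No 2 of the 4 groups overlapped, and the CD8 blockade arrays were the lowest. The difference with treatment was -0.89 ± 0.11 in CD4 cells (1.85-fold) and -1.21 ± 0.11 in CD8 cells (2.31-fold).

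Against the edge of the list, Treml2 and Cd69 lay close to its lower limit and Tnfrsf9 far inside it. Over all 8 arrays the blockade mean minus the untreated mean was -1.05 for Treml2 (rank 383 of 409 by size), -1.09 for Cd69 (rank 368) and -1.34 for Tfrc (rank 256). It was -4.47 and -3.33 for the Tnfrsf9 probe sets (ranks 8 and 25). The smallest listed difference was 1.00 in size. Just below that lay unlisted probe sets of up to 0.999, and 159 unlisted probe sets differed by 1 or more, so the size alone did not set the list. In bulk samples such as these, fewer cells carrying a transcript and less of it per cell cannot be told apart.

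**Figure D2:**
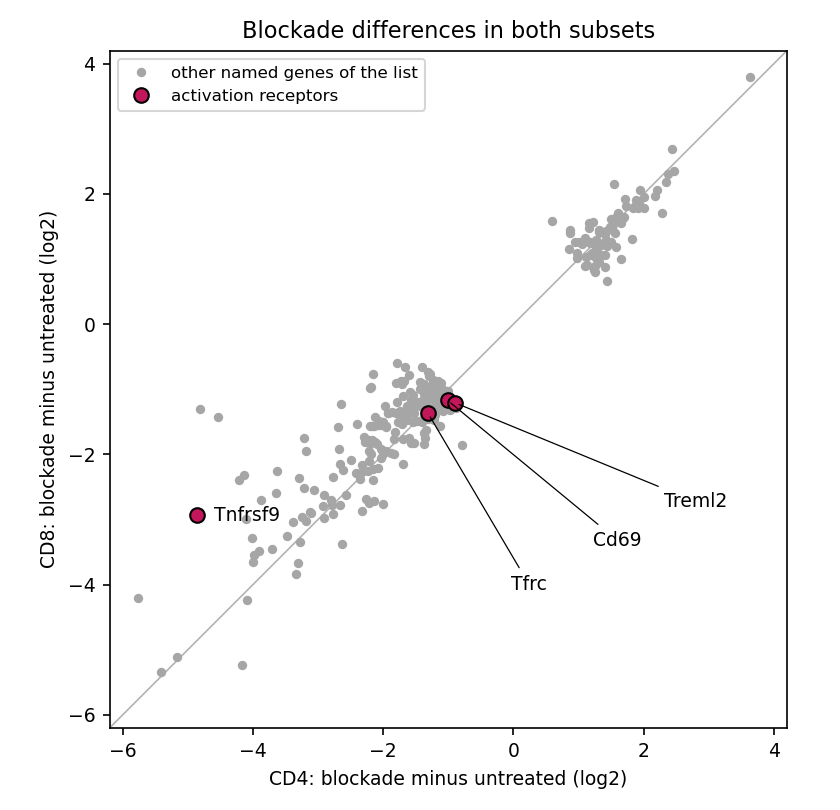
Difference between blockade and untreated arrays (log2) in CD4 cells (x axis) and in CD8 cells (y axis) for the 289 named genes of the authors' list, 1 point per gene, with the activation receptors in red and the line of equal difference in grey. Tnfrsf9 (-4.86 and -2.93) lies off the line, and Cd69, Tfrc and Treml2 lie near it; the list was selected on this difference, so the gap around 0 is built in.

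The first tested comparison asked whether CD4 and CD8 cells of untreated cultures differed. Tnfrsf9 was 4.38-fold lower in CD8 than in CD4 cells, at -2.13 ± 0.16 (95% interval -2.51 to -1.76; limma, Benjamini-Hochberg adjusted p = 0.000211 over 44951 features), with both CD8 arrays below both CD4 arrays. Both probe sets gave this difference, at -2.11 ± 0.20 (adjusted p = 0.000824) and -2.16 ± 0.17 (adjusted p = 0.000211), where 2.51% of single probe sets passed. Of the 4 genes it was the one that passed; 2.5% of all features passed in this contrast in either direction. The call held under every one of the 16 alternatives run, with adjusted p from 0.000157 to 0.00848, although quantile normalization reduced the difference to -1.17. Treml2 lay at -0.33 ± 0.11 (interval -0.58 to -0.09; limma adjusted p = 0.23), Tfrc at -0.25 ± 0.22 (-0.75 to 0.25; adjusted p = 0.782) and Cd69 at -0.20 ± 0.16 (-0.56 to 0.15; adjusted p = 0.737). These intervals exclude a difference as large as that of Tnfrsf9 and do not show that the subsets were alike. For Tfrc the sign of this small difference turned without CD4 untreated replicate 2 or CD8 untreated replicate 1, at 0.01 and 0.06.

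Under blockade the gene that passed was another one. Treml2 was 1.57-fold lower in CD8 than in CD4 cells, at -0.65 ± 0.11 (interval -0.89 to -0.41; limma adjusted p = 0.0163), with both CD8 arrays below both CD4 arrays, in a contrast where 2.2% of all features passed. The call was lost without CD4 blockade replicate 1 (limma adjusted p = 0.103), CD4 blockade replicate 2 (0.115) or CD8 blockade replicate 1 (0.121), while the difference stayed between -0.71 and -0.55 under all 15 alternatives. Tnfrsf9 lay at -0.20 ± 0.16 (interval -0.57 to 0.18; adjusted p = 0.712), but this mean hid opposite signs, -0.77 ± 0.20 for 1428034_a_at (adjusted p = 0.134) and 0.38 ± 0.17 for 1460469_at (adjusted p = 0.426), where 2.19% of single probe sets passed. Cd69 lay at -0.36 ± 0.16 (interval -0.72 to -0.01; adjusted p = 0.405) and Tfrc at -0.31 ± 0.22 (interval -0.82 to 0.19; adjusted p = 0.648). In the mean per group all 4 genes had one order, from untreated CD4 to untreated CD8 to CD4 blockade to CD8 blockade; neighbours within one treatment passed a test only for Tnfrsf9 without antibody and for Treml2 under blockade.

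**Figure D3:**
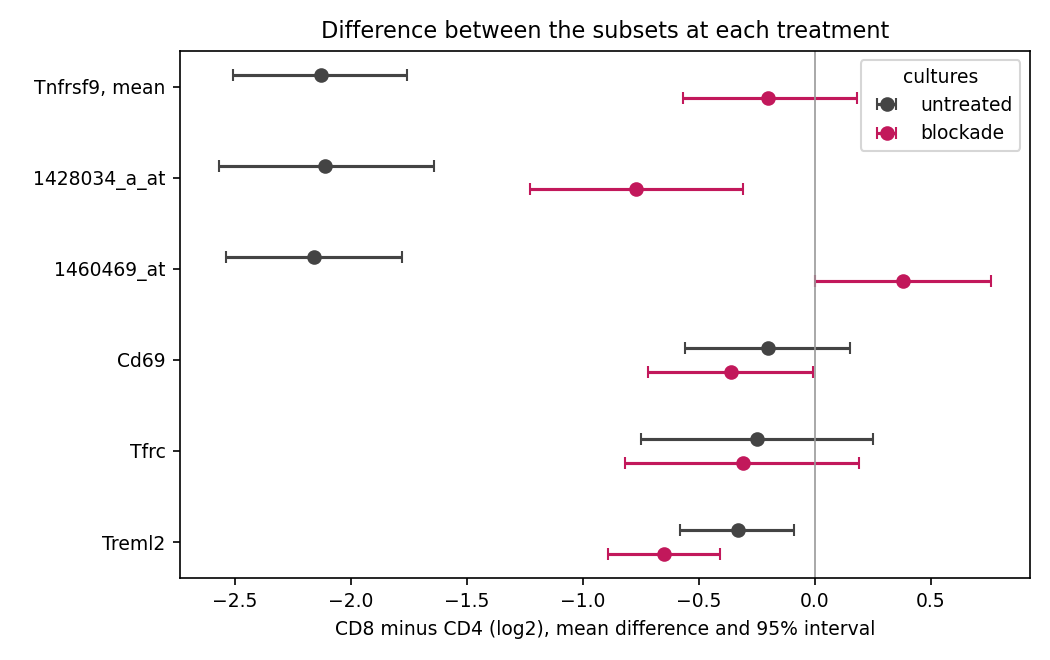
CD8 minus CD4 difference (log2, x axis) for each gene and for both Tnfrsf9 probe sets, in untreated cultures (grey) and under blockade (red); points are limma estimates from 2 and 2 arrays and bars are 95% intervals. The untreated Tnfrsf9 difference (-2.13) stands apart from the others, and its probe sets lie on opposite sides of 0 under blockade (-0.77 and 0.38).

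The last tested comparison set the blockade difference in CD8 cells against that in CD4 cells. For Tnfrsf9 it was smaller in CD8 cells by 1.94 ± 0.23 log2 units (interval 1.40 to 2.47; limma adjusted p = 0.0435). In this contrast 0.0578% of all features passed, and 4 named genes were among them, the other 3 being Itih5 (3.11 ± 0.21), Dnah7b (3.51 ± 0.29) and Gbp3 (1.23 ± 0.15), named after their values were seen. The Tnfrsf9 call was near the threshold. It was lost when any 1 of 7 arrays was left out (limma adjusted p 0.106 to 0.225, difference 1.70 to 2.06) and held without CD4 untreated replicate 1 (2.17, adjusted p = 0.0319). It was also lost with array quality weights (adjusted p = 0.0536), with the replicate number as a block (0.0723), and with quantile normalization, which reduced the difference to 0.82 (0.477). The weights came out equal for the 2 arrays of each group, from 0.82 to 1.11. They therefore weighted groups and could not single out an array. Of the single probe sets, 1460469_at passed (2.54 ± 0.24, adjusted p = 0.0129) and 1428034_a_at did not (1.34 ± 0.29, adjusted p = 0.386), where 0.0622% of single probe sets passed. With 1 array left out the adjusted p of 1460469_at ran from 0.0171 to 0.0972. The Tnfrsf9 difference was above 0 in all of the 16 alternatives run. It came mostly from the untreated arrays, with group means of 3.41 in CD4 and 1.28 in CD8 cells. Under blockade these means were -1.45 and -1.65. Centred values hold no level, so the part of a detection floor under blockade was not tested.

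For the other genes the blockade difference in CD8 minus that in CD4 was -0.32 ± 0.15 for Treml2 (interval -0.66 to 0.03; limma adjusted p = 0.977), -0.16 ± 0.22 for Cd69 (-0.66 to 0.34; 0.991) and -0.06 ± 0.31 for Tfrc (-0.78 to 0.65; 0.998). The Treml2 difference between subsets under blockade is therefore not shown to differ from that in untreated cells. The sign turned for Cd69 without CD8 blockade replicate 1 (0.08) and for Tfrc without CD4 untreated replicate 1 (0.19), CD8 blockade replicate 1 (0.03) or CD8 untreated replicate 2 (0.25).

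Tfrc had a second reading on these arrays. The array carries 3 control probe sets for the murine transferrin receptor, against the 5′ part, the middle and the 3′ part of its transcript, which are outside the list. The 5′ one read 0.28 and 0.69 in untreated CD4 cells, -0.38 and -0.13 in CD4 cells under blockade, 0.13 and 0.33 in untreated CD8 cells and -0.55 and -0.39 in CD8 cells under blockade. In each subset the blockade arrays lay below the untreated arrays, and the same held for the middle and the 3′ probe sets. The gaps were small there, as between -0.05 and 0.04 for the 3′ one in CD4 cells. The share of all probe sets that separate in this way was not counted, and the 3 controls read 1 transcript. Nothing is read from the separation alone.

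The size of the difference depended on the probe set. It was -0.74 ± 0.16 in CD4 and -0.70 ± 0.16 in CD8 cells for the 5′ control, -0.21 ± 0.09 and -0.28 ± 0.09 for the middle one, and -0.31 ± 0.12 and -0.17 ± 0.12 for the 3′ one. The listed probe set 1452661_at gave -1.31 and -1.37, so a 2-fold change was seen on 1 of the 4 probe sets identified here. Further probe sets of the 4 genes may lie outside the list. They could not be named, because only listed probe sets carry gene names here. The CD8 minus CD4 difference in the blockade effect lay between -0.07 and 0.15 for the controls (limma adjusted p 0.979 to 0.998). For comparison, the Gapdh controls gave a 5′ minus 3′ value that ranged from -0.114 to 0.007 on blockade arrays and from 0.014 to 0.099 on untreated arrays. Those of the b-Actin controls overlapped, at -0.040 to 0.051 on blockade arrays and -0.033 to 0.023 on untreated arrays. The part of either in the Tfrc values was not tested.

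**Figure D4:**
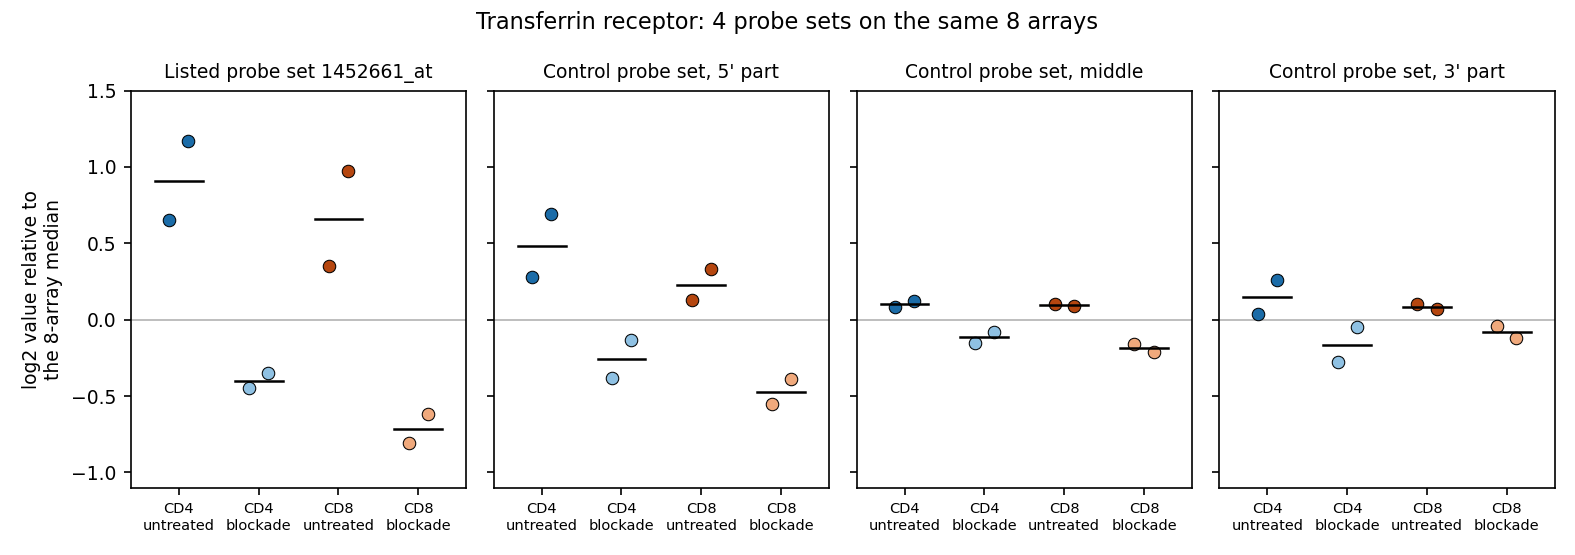
Log2 value relative to the 8-array median (y axis) of the listed Tfrc probe set and of the 3 transferrin receptor control probe sets in the 4 groups (x axis); each point is 1 array and each bar the mean of 2. The blockade arrays of each subset lie below its untreated arrays in all 4 panels, with a wide gap for 1452661_at (-1.31 in CD4) and a narrow one for the middle control (-0.21 in CD4). The share of all probe sets separated in this way was not counted.

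Among the other 288 named genes, those most like each receptor over the 8 arrays were found by Pearson correlation, as a description; all points share the treatment on which the list was chosen, and the median absolute r with a given receptor was 0.849 to 0.920. Tnfrsf9 was closest to Socs2 (r = 0.993), a suppressor of cytokine signalling, Samhd1 (0.991), a nucleotide hydrolase, and Il2ra (0.990), which encodes CD25 of the interleukin-2 receptor. Cd69 was closest to Cyp11a1 (0.996), a steroid-synthesis enzyme, and to the division genes Tacc3 (0.989) and Birc5 (0.985). Tfrc was closest to Lgals1 (0.998), which encodes galectin-1, and to the division genes Cdc6 (0.989) and Ccnb2 (0.986). Treml2 was closest to Rnf19b (0.977), H2-T24 (0.974) and Emilin2 (0.970). Between the receptors r ran from 0.897 (Tfrc and Treml2) to 0.968 (Cd69 and Tfrc).

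The 3 genes nearest to Tnfrsf9 were picked for their likeness over these arrays, so their pattern is no separate evidence, and none of their differences in blockade effect passed the test. Socs2 had -5.77 ± 0.17 in CD4 and -4.21 ± 0.17 in CD8 cells, with a CD8 minus CD4 difference of 1.56 ± 0.24 (limma adjusted p = 0.109). Samhd1 had -1.73 ± 0.09 and -0.87 ± 0.09, with a difference of 0.86 ± 0.13 (limma adjusted p = 0.109). Il2ra had -4.21 ± 0.32 and -2.40 ± 0.32. Without antibody Il2ra was lower in CD8 than in CD4 cells, by -2.21 ± 0.32 (limma adjusted p = 0.00719), while its difference in blockade effect was 1.81 ± 0.45 (adjusted p = 0.59). For the genes nearest to Cd69, Tfrc and Treml2 that difference lay between -0.25 and 0.32.

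Genes that work beside the receptors could rarely be named, because only the listed probe sets carry gene names here. Of 29 entries in a list of tumour necrosis factor receptors and ligands, the 1 named was Tnfrsf9 itself. Tnfrsf19, a receptor of that family outside the 29 entries, was also named, with blockade differences of -1.18 in CD4 and -1.02 in CD8 cells. Cd69 was the 1 named among 19 lectin-like receptors and egress genes, and Treml2 the 1 named among 14 genes of the TREM family. In the list of 23 iron genes, Lcn2 (a siderophore-binding protein) was named beside Tfrc, with a blockade difference of -1.31 ± 0.30 in CD4 and -1.27 ± 0.30 in CD8 cells. Of 28 other activation and inhibitory receptors, Il2ra and Il7r were named; Il7r, the interleukin-7 receptor of resting T cells, had a blockade difference of 1.27 ± 0.09 in CD4 and 1.01 ± 0.09 in CD8 cells. These genes come from the list chosen on that difference, so their values are a description.

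Genes of cell division, the process for which the transferrin receptor supplies iron, were lower under blockade in both subsets where the list named them. Of 26 entries 20 were named, and all 20 had lower values in both subsets. Of these, 19 passed as lower in CD4 and 18 in CD8 cells, against 2.02% and 1.14% of all features. The medians of the 20 were -2.08 and -1.86, against 0.01 and 0.02 over all features. All 20 come from the list selected on this difference, of whose 289 named genes 275 were called in CD4 and 247 in CD8 cells in either direction, so nothing is read from the count. Ccnb2, a mitotic cyclin, changed by -2.77 ± 0.37 in CD4 and -2.92 ± 0.37 in CD8 cells. Birc5, which encodes survivin, changed by -2.66 ± 0.30 and -2.78 ± 0.30, Top2a, a topoisomerase, by -2.35 ± 0.19 and -2.38 ± 0.19, and Ccna2 by -2.32 ± 0.25 and -2.27 ± 0.25. The difference between subsets in this effect ran from -0.24 to 0.51 over the 20 genes, below that of Tnfrsf9.

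Markers of other cells moved with the treatment in the sorted samples. TLT-2 is known on B cells and myeloid cells, so their values are given beside Treml2. Of 19 B cell entries 14 were named, and all 14 were higher under blockade in both subsets, where 1.39% and 0.785% of all features passed as higher. Like all named markers they come from the list chosen on this difference, so nothing is read from their counts. Their mean per array lay between -0.85 and -0.69 without antibody and between 0.68 and 0.85 under blockade, opposite to Treml2. Of 14 neutrophil entries 9 were named, with a mean per array of 1.00 to 1.80 without antibody and -1.52 to -0.96 under blockade, the direction of Treml2. All 9 had lower values under blockade in both subsets. Of these, 7 passed as lower in CD4 and 6 in CD8 cells, against 2.02% and 1.14% of all features. Other myeloid markers did not all share that direction. The 5 named macrophage and monocyte genes moved both ways. Their mean per array was -0.43 to 0.31 without antibody and -0.07 to 0.39 under blockade. For the 5 named mast cell and basophil genes it was 1.35 to 2.07 and -1.62 to -1.36, the direction of Treml2. The part of these cells in the Treml2 values was not tested, and centred values do not show which markers were absent. None of the T cell, CD4 or CD8 lineage markers looked for was named in the list, so the sorted subsets could not be checked by name.

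For CD8 blockade replicate 1 the median hybridization spike-in stood at 0.92 and the median poly-A spike-in at 0.79, against -0.23 to 0.13 and -0.44 to 0.23 on the other 7. The array of CD4 untreated replicate 2 had the lowest of both values, -0.23 and -0.44. The next lowest were -0.08 for hybridization and -0.34 for poly-A. These 2 arrays were left out together, although only CD8 blockade replicate 1 stood apart from the rest. Without both arrays Tnfrsf9 differed between untreated subsets by -1.90 (limma adjusted p = 0.00848), while the calls of its difference in blockade effect (1.66, adjusted p = 0.527) and of Treml2 under blockade (-0.59, adjusted p = 0.192) were lost.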

How the data were processed

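The deposited table held log2 values of 45101 probe sets on 8 Affymetrix Mouse430_2 arrays, which the authors had centred so that every row has a median of 0; the sources used here do not state how probes were summarised and normalized. The authors' deposited list of 409 probe sets held the same log2 values with gene names. Per the file headers it rests on an unpaired test and a corrected p cutoff of 0.05, with the conditions left blank. The number of arrays limits the precision.

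After removal of 64 control probe sets, 45037 entered a group-means model (limma 3.58.1 in R 4.3.3, moderated by eBayes), two-sided, adjusted by Benjamini-Hochberg over all features at a threshold of 0.05. Of the listed probe sets 375 had 1 gene; symbols were updated by Entrez ID (369 matched in RefSeq GRCm38.p6), and probe sets of one gene were averaged, leaving 44951 features. Single probe sets and the transferrin receptor controls were fitted in the same way. No dim probe sets could be filtered, since centred values hold no level. The model was tested on simulated data.

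The genes and gene lists were chosen with earlier results of these data known. Beside the receptors, the text names the 3 named genes most correlated with each and up to 4 members of each list with the largest mean blockade difference. The alternatives were quantile normalization, median centring, array weights, a replicate block, single probe sets, the arrays of one subset, and fits without 1 or 2 arrays.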

Additional observations from a re-analysis of the deposited data

Results flagged for a closer look

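Tnfrsf9 is given here because its blockade difference passed a test for a difference between CD4 and CD8 cells, near the threshold. It was -4.86 in CD4 and -2.93 in CD8 cells, and the CD8 minus CD4 difference was 1.94 ± 0.23 (limma adjusted p = 0.0435). Both untreated CD4 arrays, at 3.17 and 3.65 for the mean of the probe sets, lay above both untreated CD8 arrays, at 1.17 and 1.38, while the blockade arrays of the subsets read -1.57 to -1.33 in CD4 and -1.69 to -1.61 in CD8 cells. Of the single probe sets, 1460469_at passed (2.54, limma adjusted p = 0.0129) and 1428034_a_at did not (1.34, adjusted p = 0.386). The call of the mean was lost with quantile normalization (0.82), with the replicate block and with array weights.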

How the results depend on the processing

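The untreated difference of Tnfrsf9 between subsets kept its call under all 16 alternatives (-2.37 to -1.17). Its difference in blockade effect kept its direction but lost its call with quantile normalization (0.82), which forces equal distributions on centred values. The call was also lost with the replicate block (1.94, limma adjusted p = 0.0723), with array weights (1.94) and on 1428034_a_at alone (1.34). So it was in 7 of 8 leave-one-out fits. All 8 gave 1.70 to 2.17, and the 2.17 fit, without CD4 untreated replicate 1, kept the call. It was lost too without both the array of highest and that of lowest spike-ins (1.66). The Treml2 difference under blockade lost its call without both those arrays (-0.59) and in 3 of 8 leave-one-out fits. All 8 gave -0.71 to -0.59, and the -0.71 fit kept the call. The Tnfrsf9 mean under blockade turned sign on 1460469_at alone (0.38). Without both arrays the untreated Tfrc difference was 0.01. Leave-one-out ranges that crossed 0 were -0.56 to 0.06 for Tfrc without antibody, -0.37 to 0.25 for its difference in blockade effect and -0.40 to 0.08 for that of Cd69. The described Tnfrsf9 blockade difference in CD4 was -3.64 with quantile normalization, -4.63 without both arrays, -5.13 and -4.59 on the single probe sets (-5.10 to -4.63 leaving out 1 array), and in CD8 -3.80 and -2.06. In CD8 that of Cd69 was -0.93 without both arrays (-1.40 to -0.93 leaving out 1), and that of Tfrc -1.69 to -1.06 leaving out 1.

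Counts over all features moved more. The unadjusted count given next, out of 44951 features, is about what a limma p threshold of 0.05 passes when no feature differs. By itself that count shows no broad difference between subsets in the blockade effect. The difference in blockade effect had 26 calls, 17 with quantile normalization, 0 without both arrays (2243 features had an unadjusted p below 0.05 in the full fit) and 5 to 26 leaving out 1. The untreated contrast had 1123 calls, 460 without both arrays and 551 to 1070 leaving out 1, and that under blockade 990, 392 and 505 to 884. The blockade effect had 1529 calls in CD4, 531 and 666 to 1413, and 867 in CD8, 275 and 411 to 773, or 453 with the CD8 arrays alone. Fewer arrays leave fewer degrees of freedom in these fits; other causes were not tested. Over all probe sets replicate numbers showed no sign of pairing the arrays: differences between replicates 1 and 2 correlated by -0.03 to 0.08 between groups. This does not exclude pairing, since Tfrc and Cd69 read higher in replicate 2 in all 4 groups. With the block the SE of the Tfrc difference in blockade effect went from 0.31 to 0.20. The block moved no other call of the 4 genes.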

Other observations

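Further markers of other cells were counted in the sorted samples; their named genes come from the list selected on the blockade difference, so nothing is read from the counts. Of 11 entries for MHC class II presentation 8 were named, and in each subset 7 rose and Cd86, a costimulatory ligand of CD28, fell (-1.17 ± 0.20 in CD4 and -1.11 ± 0.20 in CD8 cells). Of 10 mast cell and basophil entries 5 were named, and all 5 had lower values in both subsets. In CD4 cells 5 passed as lower and in CD8 cells 4, against 2.02% and 1.14% of all features. Cpa3, a mast cell carboxypeptidase, stood at -4.17 ± 0.20 and -5.23 ± 0.20. Of 14 macrophage and monocyte entries 5 were named, and they moved both ways, with Apoe at 2.43 ± 0.13 and 2.69 ± 0.13 and Ccl6 at -3.47 ± 0.41 and -3.26 ± 0.41. Natural killer, erythroid and platelet markers were not named in the list.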
